A study of Homo sapiens with 16 samples.

Results

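The 8 genes studied here belong to the p53 negative feedback loop and its close surroundings, followed across an RFX7 knockdown experiment in U2OS cells: MDM2, MDM4, RCHY1, COP1, USP7, PPM1D, CCNG1 and TP73. The genes were chosen by symbol, and all 8 were present in each of the 4 deposited comparison tables, out of 23396 genes found in any table and 19344 found in all 4. U2OS is a human osteosarcoma line with wild-type p53. Its poly(A) RNA was sequenced after transfection with a control siRNA (siControl) or with a siRNA directed at the transcription factor RFX7 (siRFX7). Transfected cells received 10 µM Nutlin-3a or the solvent DMSO for 24 h, which gave 4 groups of 4 libraries, 16 in all: siControl with DMSO, siControl with Nutlin-3a, siRFX7 with DMSO and siRFX7 with Nutlin-3a. The control arm was thus itself transfected, and the solvent arm itself carried DMSO. Nothing in the labels says that the 4 libraries of a group came from separate cultures, so the p-values measure the spread between these libraries, which may be technical.

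As background, p53 is held low in unstressed cells by MDM2, a RING ubiquitin ligase that binds its activation domain and marks it for degradation. The MDM2 gene is itself switched on by p53, which closes a negative feedback loop. Nutlin-3a occupies the p53 pocket of MDM2, so p53 accumulates without DNA damage. MDM4 is a paralog that binds and silences p53 and pairs with MDM2 through its RING domain. RCHY1 (PIRH2) and COP1 are further ubiquitin ligases of p53, USP7 (HAUSP) removes ubiquitin from both MDM2 and p53, PPM1D (WIP1) is a phosphatase that reverses damage signalling to p53, and CCNG1 (cyclin G1) brings the phosphatase PP2A to MDM2. TP73 encodes p73, a p53 relative whose full-length and amino-terminally truncated forms start from separate promoters. U2OS is known to carry a truncating change in the last exon of PPM1D that yields a stable phosphatase, and gene-level counts cannot separate the 2 alleles. Gene-level counts likewise do not separate the forms of TP73.

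The deposited tables give, per gene, a mean normalised count over the 8 libraries of a comparison (base mean), a log2 fold change with its standard error (SE) and an adjusted p-value. They hold no value of a single library, so errors here are the authors' SE and the overlap of single libraries between groups cannot be given. Summed over genes, the base means of a table came to 27946376 at the lowest and 35311111 at the highest. RFX7, the target of the siRNA, was lower in siRFX7 in the authors' deposited tables, at 18.6% of siControl under DMSO and 19.4% under Nutlin-3a. The sign of RFX7 was used to fix the direction of these tables, so its size alone is a measurement. The mesenchymal markers VIM, COL1A1 and SPARC were abundant in the authors' deposited table for Nutlin-3a in siControl, with base means of 84577, 39039 and 31574, the osteoblast regulator RUNX2 had 432, ALPL had 371, and COL1A2 and BGLAP were low at 13.2 and 4.25. The osteoblast regulator SP7 was not analysed here. In the same deposited table the leukocyte marker PTPRC and the endothelial marker PECAM1 had base means of 5.21 and 2.66, and the liver marker ALB was not analysed here. The melanocyte regulator MITF had 793. The epithelial markers EPCAM and CDH1 had 191 and 121, and both were higher with siRFX7 in the authors' deposited tables, EPCAM by 0.54 under DMSO and 0.41 under Nutlin-3a, CDH1 by 0.85 and 1.1, all on the log2 scale. Their part in the results on the 8 genes was not tested. In bulk RNA, fewer cells of a kind and less RNA per cell cannot be told apart.

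The promoter sequences are shown first, because the genes of the loop differ in whether a p53 motif lies next to an annotated start. RefSeq promoter windows on GRCh38.p14, from 250 bases before to 50 bases after a start, were available for all 8 genes, 19 windows in all. They were searched on both strands for the p53 motif, 20 bases made of 2 abutting half-sites of 10, counting mismatches to the consensus. A window with at most 2 mismatches was found in 2 of the 8 genes, MDM2 and TP73, and in 0.649% of all 35114 windows. In MDM2 it lies before the internal start in intron 1, not before the upstream start. In TP73 it lies before the internal start that serves the truncated form. The 120 bases before each of these starts are given 5′ to 3′ on the plus strand, with matches of at most 3 mismatches in capitals, together with the MDM2 upstream start, which has none.
MDM2 internal start, chr12:68808897-68809016: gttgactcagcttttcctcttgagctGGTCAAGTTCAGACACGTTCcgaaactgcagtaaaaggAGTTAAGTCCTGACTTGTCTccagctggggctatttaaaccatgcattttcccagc
TP73 internal start, chr1:3690552-3690671: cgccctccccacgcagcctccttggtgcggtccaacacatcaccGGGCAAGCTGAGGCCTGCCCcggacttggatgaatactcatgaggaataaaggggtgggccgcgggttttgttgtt
MDM2 upstream start, chr12:68808052-68808171: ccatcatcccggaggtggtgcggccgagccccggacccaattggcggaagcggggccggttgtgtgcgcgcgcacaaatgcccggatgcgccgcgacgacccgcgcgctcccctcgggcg

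The internal MDM2 start has 2 matches in tandem, the better one with 2 mismatches and the other with 3. The best match of the remaining genes had 4 mismatches in PPM1D and USP7, 5 in MDM4 and RCHY1, 6 in CCNG1 and 7 in COP1, and 26.0% of all windows hold a match with 4 or fewer. An E2F word (TTTGGCGC, TTTGCCGC, TTTCGCGC or TTTCCCGC, either strand) was present in the upstream windows of TP73 and MDM2 and in 3.31% of all windows. A match of letters is a description of these windows, and the absence of one says nothing on a site elsewhere in a gene.

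MDM2 (ENSG00000135679, chr12:68808176-68850686, plus strand, GENCODE 29 on GRCh38) had the highest Nutlin-3a response of the 8 genes. Computed from the authors' deposited tables, its level was 133 normalised counts per 1000000 (CPM) in siControl with DMSO and 989 with Nutlin-3a, and 128 and 869 in siRFX7. Both treated groups were thus far above both solvent groups. These levels, and those of the other genes below, come from the Nutlin-3a comparison of each arm. From the siRFX7 comparisons the same 4 levels of MDM2 came to 129, 983, 129 and 900. Changes with siRFX7 are therefore read from the direct comparisons and not from levels across the arms. In the authors' deposited table for siControl the rise was 2.89 ± 0.04 on the log2 scale, 7.41-fold, rank 23 of the 13525 genes whose base mean reached 100. In that for siRFX7 it was 2.76 ± 0.04, 6.78-fold, rank 13 of 12867. The adjusted p was listed as 0 in both deposited tables, which is below the smallest number the format holds. The siRNA against RFX7 left MDM2 at 99.9% of siControl under DMSO, a log2 fold change of -0.00 ± 0.05 in the authors' deposited table (adjusted p = 0.990). Under Nutlin-3a MDM2 was lower in siRFX7, at 91.5% of siControl, a log2 change of -0.13 ± 0.03 in the authors' deposited table (adjusted p = 9.15e-04).

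MDM4 (ENSG00000198625, chr1:204516379-204558120, plus strand), the paralog of MDM2, stayed between 43.4 and 45.4 CPM in all 4 groups, as computed from the authors' deposited tables. It passed the test in none of the 4 comparisons. Its log2 fold changes in the authors' deposited tables were 0.02 ± 0.05 and 0.06 ± 0.08 with Nutlin-3a in siControl and siRFX7, and 0.04 ± 0.07 and 0.09 ± 0.06 with siRFX7 under DMSO and Nutlin-3a, with adjusted p-values from 0.262 to 0.857. Levels of different genes can be set against each other only per length, here per kilobase (kb) of annotated exon. Per kb, computed from the authors' deposited tables, MDM2 stood at 2.52 times MDM4 in siControl with DMSO and at 18.5 times with Nutlin-3a, and at 2.44 and 15.9 times in siRFX7. The 13284 exon bases of MDM2 include an annotated 3′ UTR of 10837 bases, so its level per kb depends on how much of that annotation these cells use, while the change in the ratio between groups does not depend on a fixed length.

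**Figure D1:**
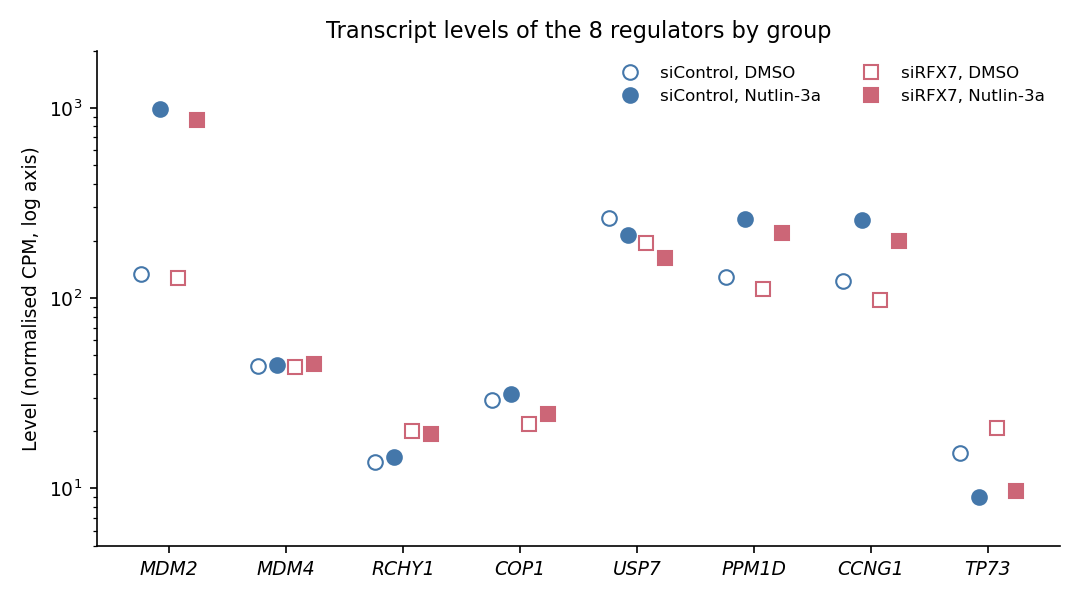
Level of each gene in the 4 groups, in normalised CPM on a log axis. Each point is 1 group, computed from the authors' deposited base mean and log2 fold change, with no error bar because single libraries are not in the tables. MDM2 separates by treatment, from 133 to 989 in siControl, while RCHY1 and COP1 separate by siRNA. Levels are from the Nutlin-3a comparison of each arm and differed by up to 3.8% from those of the siRFX7 comparisons.

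The other ubiquitin ligases moved with the siRNA rather than with Nutlin-3a. RCHY1 (ENSG00000163743, chr4:75479037-75514764, minus strand) was at 13.7 and 14.6 CPM in siControl with DMSO and Nutlin-3a, and at 20.03 and 19.2 in siRFX7, computed from the authors' deposited tables. Both siRFX7 groups were above both siControl groups. In the authors' deposited table for DMSO, RCHY1 rose 1.53-fold with siRFX7, by 0.61 ± 0.07 (adjusted p = 8.61e-17), rank 252 of the 13170 genes whose base mean reached 100. In that for Nutlin-3a it rose 1.38-fold, by 0.47 ± 0.08 (adjusted p = 3.14e-08). Its Nutlin-3a responses were 0.09 ± 0.07 and -0.06 ± 0.08 in the authors' deposited tables and passed the test in neither arm (adjusted p = 0.379 and 0.601). COP1 (ENSG00000143207, chr1:175944831-176207493, minus strand) went the opposite way with the siRNA. Its level was 29.3 and 31.2 CPM in siControl and 21.9 and 24.6 in siRFX7, by the same computation from the authors' deposited tables. It fell to 78.0% of siControl under DMSO, a log2 change of -0.36 ± 0.06 (adjusted p = 7.17e-08), and to 82.3% under Nutlin-3a, a log2 change of -0.28 ± 0.06 (adjusted p = 1.70e-05), in the authors' deposited tables. With Nutlin-3a, COP1 rose in siRFX7 by 0.17 ± 0.07 (adjusted p = 0.0332) and had 0.09 ± 0.05 in siControl (adjusted p = 0.202), in the authors' deposited tables. The call in siRFX7 was lost at an adjusted p threshold of 0.01.

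USP7 (ENSG00000187555, chr16:8892094-8964514, minus strand), the deubiquitinase of MDM2 and p53, was lower with Nutlin-3a and lower with siRFX7. Its level fell from 264 CPM in siControl with DMSO to 214 with Nutlin-3a, and stood at 195 and 164 in siRFX7, computed from the authors' deposited tables. The group with both agents was thus the lowest. The Nutlin-3a log2 fold changes were -0.30 ± 0.04 in siControl (adjusted p = 1.02e-13) and -0.26 ± 0.04 in siRFX7 (adjusted p = 1.18e-10) in the authors' deposited tables. With siRFX7 USP7 fell to 77.2% of siControl under DMSO, a log2 change of -0.37 ± 0.04 (adjusted p = 1.87e-22), and to 79.7% under Nutlin-3a, a log2 change of -0.33 ± 0.04 (adjusted p = 1.15e-15), in the authors' deposited tables.

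PPM1D and CCNG1, the phosphatase and the phosphatase recruiter of the loop, rose by nearly the same factor. PPM1D (ENSG00000170836, chr17:60600183-60666280, plus strand) went from 128 to 261 CPM with Nutlin-3a in siControl and from 112 to 220 in siRFX7, computed from the authors' deposited tables. CCNG1 (ENSG00000113328, chr5:163437569-163446151, plus strand) went from 124 to 257 in siControl and from 97.6 to 201 in siRFX7, by the same computation from the authors' deposited tables. For both genes the treated groups lay above the solvent groups, and siRFX7 lay below siControl at each treatment. PPM1D rose 2.03-fold in siControl, by 1.02 ± 0.04 (adjusted p = 8.98e-171), and 1.96-fold in siRFX7, by 0.97 ± 0.04 (adjusted p = 9.88e-131), in the authors' deposited tables. CCNG1 rose 2.08-fold, by 1.06 ± 0.05 (adjusted p = 1.18e-103), and 2.06-fold, by 1.04 ± 0.04 (adjusted p = 1.89e-119), in the authors' deposited tables. Their ranks were 229 for PPM1D and 211 for CCNG1 among the 13525 genes of the siControl table, far behind MDM2. With siRFX7 PPM1D fell to 91.1% under DMSO, a log2 change of -0.13 ± 0.04 (adjusted p = 0.00195), and to 87.8% under Nutlin-3a, a log2 change of -0.19 ± 0.04 (adjusted p = 5.00e-06), in the authors' deposited tables. CCNG1 fell to 82.2% and 81.5%, log2 changes of -0.28 ± 0.05 (adjusted p = 3.29e-07) and -0.29 ± 0.04 (adjusted p = 2.62e-11), in the authors' deposited tables.

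TP73 (ENSG00000078900, chr1:3652520-3736201, plus strand) fell with Nutlin-3a. Its level went from 15.4 to 8.98 CPM in siControl and from 20.8 to 9.67 in siRFX7, computed from the authors' deposited tables. The 2 treated groups were close to each other and the 2 solvent groups were apart. The fall was -0.78 ± 0.09, to 58.4%, in siControl (adjusted p = 2.03e-16) and -1.11 ± 0.09, to 46.5%, in siRFX7 (adjusted p = 6.58e-31), in the authors' deposited tables. With siRFX7 TP73 rose 1.41-fold under DMSO, by 0.49 ± 0.08 (adjusted p = 6.74e-09), and had 0.16 ± 0.11 under Nutlin-3a (adjusted p = 0.254), in the authors' deposited tables. With a base mean of 429 in the siControl table, TP73 was the least abundant of the 8 genes there and had the widest SE.

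**Figure D2:**
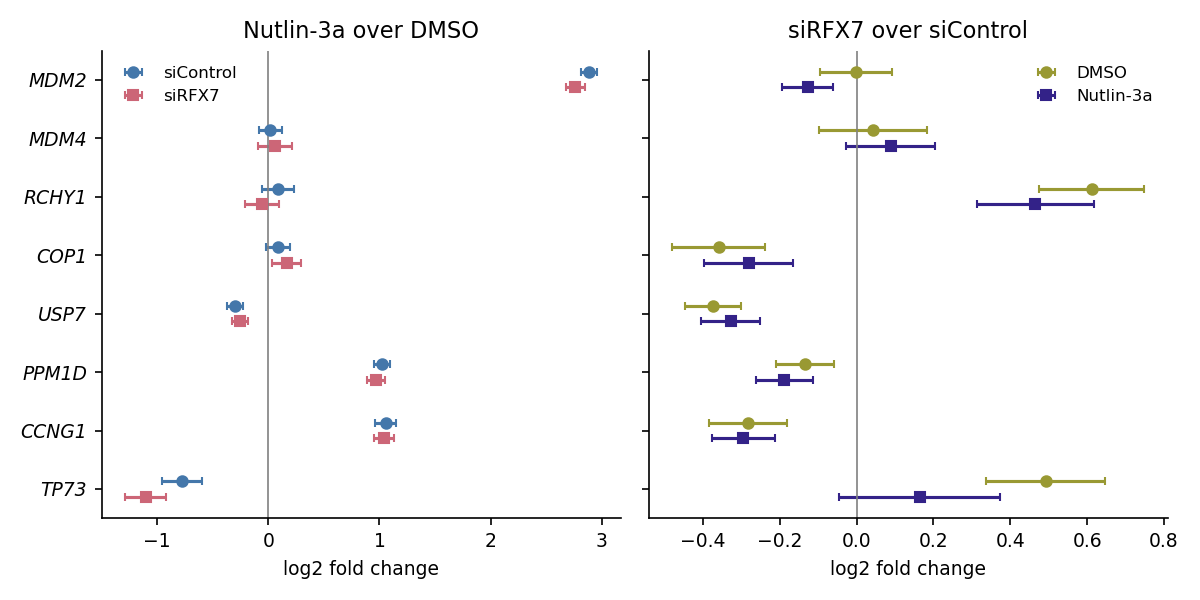
Log2 fold changes of the 8 genes in the authors' deposited tables, Nutlin-3a over DMSO on the left and siRFX7 over siControl on the right, with 95% intervals from the authors' SE. The axes differ in range. MDM2, PPM1D and CCNG1 lie to the right of 0 in both Nutlin-3a comparisons, and RCHY1 lies to the right and COP1, USP7, PPM1D and CCNG1 to the left in both siRNA comparisons.

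Counted over the 8 genes in the authors' deposited tables, Nutlin-3a in siControl raised 3 (MDM2, PPM1D, CCNG1) and lowered 2 (TP73, USP7), so 5 passed the adjusted p of 0.05. Among all genes tested there, 37.9% passed, 18.3% higher and 19.6% lower. All 8 genes had a base mean of at least 100, which 13525 of those 23353 genes reached. The shares and medians over all genes given here thus include many genes with fewer counts and are not matched to the 8 in level. Whether the 8 pass more often than genes of like level was not tested. In siRFX7 Nutlin-3a raised 4 (COP1 besides those 3) and lowered the same 2, against 39.1% of all genes that passed, 18.7% higher and 20.3% lower. The siRNA against RFX7 raised 2 (RCHY1, TP73) and lowered 4 (USP7, COP1, CCNG1, PPM1D) under DMSO, against 37.4% of all genes, 19.9% higher and 17.5% lower. Under Nutlin-3a it raised 1 (RCHY1) and lowered 5 (those 4 and MDM2), against 32.6% of all genes, 17.2% higher and 15.4% lower. The median size of the log2 fold change over the 8 genes was 0.54, 0.61, 0.32 and 0.23 in these 4 comparisons, against 0.24, 0.24, 0.19 and 0.18 over all genes of each of the authors' deposited tables. The comparisons share groups in pairs (siControl with DMSO enters 2 of them, for example), so their counts are not independent of each other.

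Whether the loop answered Nutlin-3a differently after RFX7 knockdown was tested from the difference of the responses, siRFX7 minus siControl, since these 2 tables share no library. None of the 8 genes passed at an adjusted p of 0.05 (two-sided normal test on the authors' deposited log2 fold changes and SE), against 0.937% of 21339 genes, 200 in number. Before adjustment 2 of the 8 were under 0.05, TP73 and MDM2, against 6.32% of all genes. The difference was -0.33 ± 0.13 for TP73 (95% interval -0.59 to -0.08, adjusted p = 0.408) and -0.13 ± 0.06 for MDM2 (-0.24 to -0.01, adjusted p = 0.626), computed from the authors' deposited tables. CCNG1 had the smallest difference, -0.01 ± 0.07 (-0.14 to 0.11), and PPM1D had -0.06 ± 0.05 (-0.16 to 0.05), computed in the same way from the authors' deposited tables. For the other 4 genes the differences, computed likewise from the authors' deposited tables, were -0.15 ± 0.11 for RCHY1 (-0.35 to 0.06), 0.05 ± 0.09 for MDM4 (-0.14 to 0.23), 0.08 ± 0.09 for COP1 (-0.09 to 0.25) and 0.04 ± 0.05 for USP7 (-0.06 to 0.15). A p that missed the threshold does not show that a gene responded alike in both arms, and each gene's own interval gives the differences its data allow, narrowest for PPM1D and USP7 and widest for TP73. Their median difference was -0.03, against -0.00 over all genes.

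**Figure D3:**
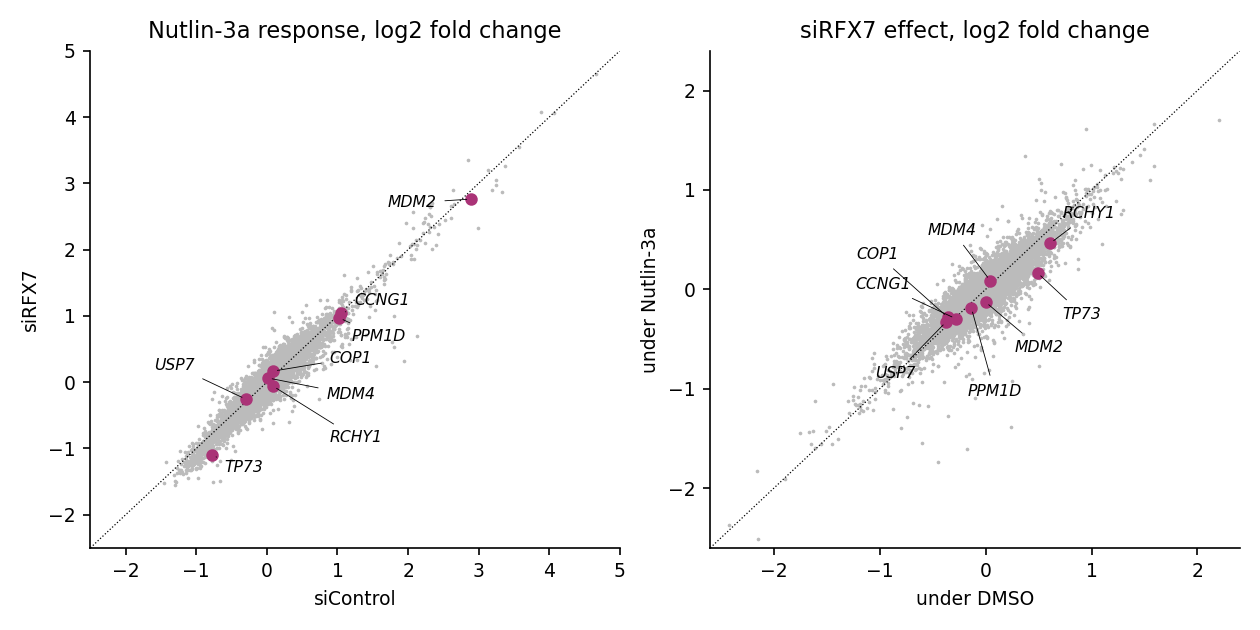
Each grey point is a gene whose base mean reached 100, 12839 genes on the left and 12928 on the right, from the authors' deposited tables. Left, log2 fold change with Nutlin-3a in siControl (horizontal) and siRFX7 (vertical). Right, log2 fold change with siRFX7 under DMSO (horizontal) and Nutlin-3a (vertical). The dotted line marks equal values, and MDM2 on the left lies at 2.89 and 2.76.

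Per kb of annotated exon the order of the 8 genes changed with treatment, computed from the authors' deposited tables. In siControl with DMSO it was CCNG1 at 39.96 CPM per kb, USP7 at 33.1, PPM1D at 25.5, MDM2 at 10.05, COP1 at 6.69, MDM4 at 3.98, TP73 at 2.27 and RCHY1 at 2.09. With Nutlin-3a it was CCNG1 at 83.1, MDM2 at 74.5, PPM1D at 51.8, USP7 at 26.9, COP1 at 7.12, MDM4 at 4.03, RCHY1 at 2.22 and TP73 at 1.33. In siRFX7 the DMSO levels per kb were 31.5 for CCNG1, 24.5 for USP7, 22.3 for PPM1D, 9.64 for MDM2, 4.99 for COP1, 3.95 for MDM4, 3.08 for TP73 and 3.05 for RCHY1. With Nutlin-3a in siRFX7 MDM2 came first at 65.4, just ahead of CCNG1 at 64.9, followed by PPM1D at 43.6, USP7 at 20.5, COP1 at 5.61, MDM4 at 4.12, RCHY1 at 2.93 and TP73 at 1.43. MDM2 thus moved from the fourth place in both solvent groups to the second or the first, and its share of the summed level per kb of the 8 genes went from 8.13% to 29.7% in siControl and from 9.35% to 31.4% in siRFX7. MDM2 and CCNG1 in siRFX7 with Nutlin-3a, and TP73 and RCHY1 in siRFX7 with DMSO, were the closest neighbours in value. The spread over libraries is not known from these tables, so whether any neighbours in these orders differ beyond it was not tested. These places and shares also depend on how much of the annotated exon length the cells use, as said above for MDM2.

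The wider pathway was read from 7 lists, described by counts. In the authors' deposited table for Nutlin-3a in siControl all 23 measured genes of a list of other p53-induced genes were higher, with a median log2 fold change of 1.72 against 0.01 for all genes. They ranged from AEN, a nuclease, at 0.46 ± 0.04 to GDF15, a secreted cytokine, at 3.83 ± 0.23. In siRFX7 all 23 were higher too, with a median of 1.80 in the authors' deposited table. The shares of all genes that were higher were 18.3% in siControl and 18.7% in siRFX7. The list was made of genes known as p53-induced, with earlier results of these data known, so these counts are not independent evidence. CDKN1A is among these 23, and its sign was used to fix table directions, so its size alone is a measurement. MDM2 at 2.89 lay above that list's median, and PPM1D and CCNG1 at 1.02 and 1.06 lay below it. With siRFX7 the same list split, 4 higher and 9 lower under DMSO and 6 higher and 9 lower with Nutlin-3a present, by the authors' deposited tables. Of all genes 19.9% were higher and 17.5% lower under DMSO, and 17.2% and 15.4% with Nutlin-3a.

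Of 12 other p53 ubiquitin ligases 1 was higher and 3 were lower in siControl, and 3 were higher and 5 lower in siRFX7, in the authors' deposited tables. With Nutlin-3a 18.3% of all genes were higher and 19.6% lower in siControl, against 18.7% and 20.3% after the knockdown. Whether any of these lists departs from such shares was not tested. CUL9, a cullin that binds p53, was the highest in siControl at 0.33 ± 0.05 in the authors' deposited table, while TRIM28, a corepressor that works with MDM2, was the lowest at -0.31 ± 0.03. Of 8 other deubiquitinases 2 were higher and 4 lower in siControl in the authors' deposited table, between USP42 at -0.23 ± 0.04 and USP4 at 0.23 ± 0.04 among those whose base mean reached 100. USP7 at -0.30 fell further than USP42 in value, a difference that was not tested. Of 10 measured MDM2-binding regulators 3 were higher and 4 lower in the authors' deposited table for siControl. The 3 were ribosomal proteins that bind MDM2, led by RPL23 at 0.19 ± 0.04, and the lowest was MTBP, named for its binding to MDM2, at -0.86 ± 0.06. CDKN2A, the gene of the MDM2 inhibitor ARF, was not analysed here.

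Kinases that act on p53 or MDM2 gave 1 higher and 4 lower of 9 in the authors' deposited table for Nutlin-3a in siControl. Of all genes 18.3% were higher and 19.6% lower there. HIPK2 was the highest at 0.19 ± 0.06 and CHEK1, the checkpoint kinase, the lowest at -0.85 ± 0.06. The list of p53 relatives and ASPP cofactors also holds TP53BP1, a p53-binding protein that is neither. In that list 1 of 5 was higher (TP53BP1, 0.11 ± 0.04) and 1 was lower (TP53BP2, -0.17 ± 0.05) in the same deposited table. With siRFX7 3 of the 4 measured genes of that list were higher and none was lower under either treatment, in the authors' deposited tables. The siRNA raised 6 and lowered 2 of the 12 ligases under DMSO, and raised 5 and lowered none of the 8 deubiquitinases, in the authors' deposited tables. Among all genes tested 19.9% were higher and 17.5% lower there. USP7 thus fell with siRFX7 under DMSO while all 5 called genes of the deubiquitinase list rose. COP1 fell there as 2 of the 12 listed ligases did, while 6 of them and RCHY1 rose. The lowest of the 12 was at -0.34, near COP1 at -0.36. With Nutlin-3a present 3 ligases were higher and 1 lower, and 2 deubiquitinases were higher and none lower. The shares of all genes there were 17.2% higher and 15.4% lower.

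**Figure D4:**
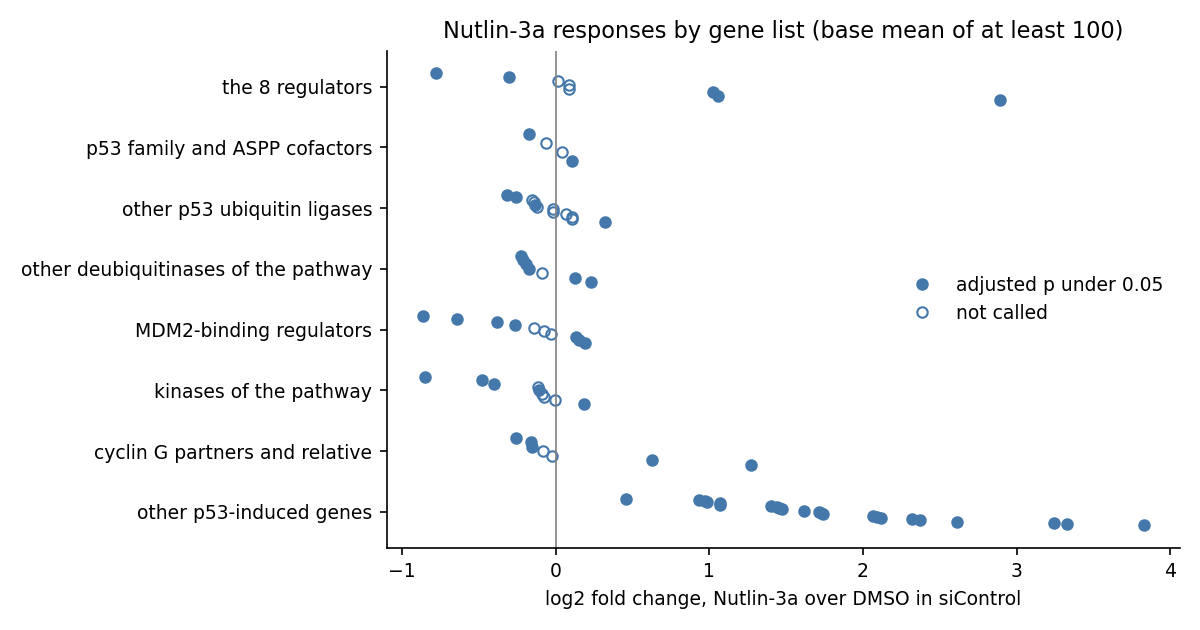
Log2 fold change with Nutlin-3a over DMSO in siControl for the 8 regulators and 7 pathway lists, from the authors' deposited table, for genes whose base mean reached 100. Each point is a gene, filled where the adjusted p was under 0.05, and the vertical offset within a row only separates points. The p53-induced genes all lie above 0, and the ligases, deubiquitinases and kinases lie on both sides of it.

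Within the list of cyclin G partners and relatives, 2 of 7 genes answered Nutlin-3a to a different degree with and without the siRNA against RFX7. CCNG2, the paralog of CCNG1, rose 2.42-fold with Nutlin-3a in siControl, by 1.27 ± 0.06, and 1.25-fold in siRFX7, by 0.33 ± 0.11, in the authors' deposited tables. The difference of its responses was -0.94 ± 0.12 (95% interval -1.18 to -0.71, adjusted p = 1.78e-11, two-sided normal test on the authors' deposited values). The same difference for CCNG1, given above, was -0.01 ± 0.07, and the 2 intervals do not overlap, though the gap between the paralogs was not itself tested. CCNG2 fell with siRFX7 to 66.1% of siControl under DMSO and to 34.3% under Nutlin-3a, against 82.2% and 81.5% for CCNG1, in the authors' deposited tables. Among the PP2A regulatory subunits that cyclin G binds, PPP2R5E was the lowest with Nutlin-3a in siControl at -0.25 ± 0.04 in the authors' deposited table. In the authors' deposited tables PPP2R5D changed by -0.15 ± 0.04 with Nutlin-3a in siControl and by -0.43 ± 0.04 in siRFX7. These responses differed by -0.28 ± 0.06 (adjusted p = 0.00143).

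**Figure D5:**
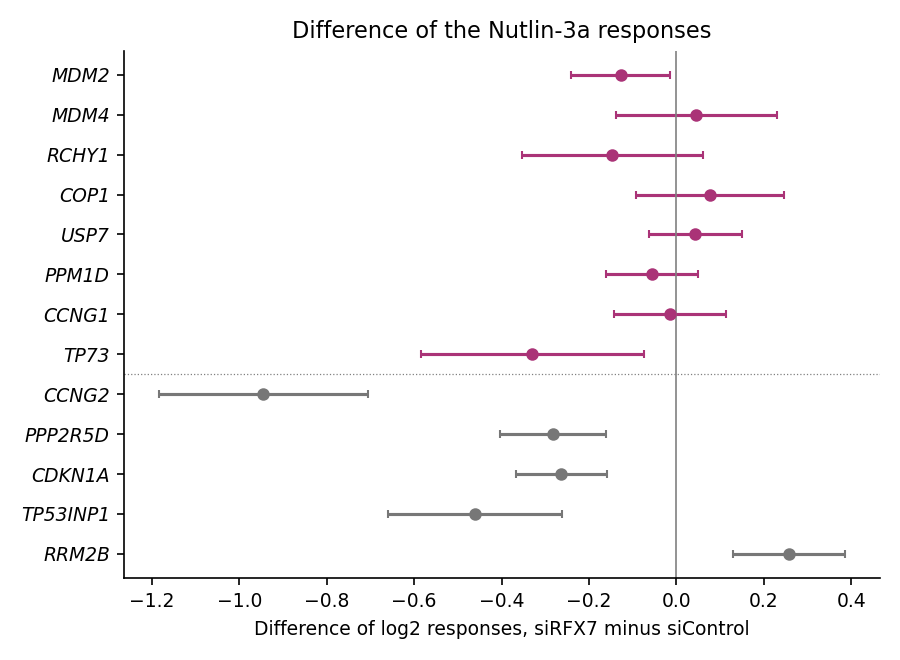
Difference of the Nutlin-3a responses on the log2 scale, siRFX7 minus siControl, with 95% intervals computed from the authors' deposited SE. The 8 regulators stand above the dotted line, and below it the 5 genes of the pathway lists with an adjusted p under 0.05. The regulators' points lie between -0.33 (TP73) and 0.08 (COP1), and CCNG2 lies at -0.94.

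The genes whose 4 log2 fold changes were closest to each of the 8 (Euclidean distance over the authors' deposited values, 12177 genes whose base mean reached 100 in all tables) were then listed. The 4 values hold 3 independent ones, since the fourth follows from the others. For MDM2 the nearest were BTG2 at a distance of 0.35, CYFIP2 at 0.51 and TP53INP1 at 0.57. For PPM1D they were GPC1 at 0.05, POLH at 0.07 and ARC at 0.09, and for CCNG1 CES2 at 0.04, GSDME at 0.09 and REEP2 at 0.10. TP73 was nearest to UBE2SP1, a processed pseudogene whose reads can come from its parent gene, at 0.09, then to CCNF, a cyclin of the S and G2 phases, at 0.19 and ZFPM2 at 0.26. The nearest genes of RCHY1 were CSNK1A1L, FXR2 and SH3PXD2A, those of COP1 were ADAM9, C19orf70 and NT5DC1, and those of USP7 were NUDT1, LSM4 and the pseudogene RBMXP2, at distances from 0.02 to 0.06. MDM4 was nearest to ZMYM4, TMED7 and GGA3, and had 288 genes within 0.1, the most of the 8.

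A sequence word in the 3′ UTR moved with the siRNA effect and is shown because it lies in genes of the loop. The heptamer GTATCTA was known from earlier work on these same tables to be frequent in genes lower with siRFX7, so its link with lower levels is not independent evidence. That work read it as a possible match to the seed of the siRNA. The siRNA sequence is not given in the sources used here, so whether the word pairs with it, and the part of such off-target pairing in the siRFX7 values of any gene, was not tested. Of 11069 genes with a measured 3′ UTR 8.70% carried it in an annotated transcript (GENCODE 29, sense strand), and 3 of the 8 genes did: RCHY1, CCNG1 and USP7. In the authors' deposited table for siRFX7 under DMSO 47.8% of the 963 genes with the word were lower, against 19.9% of the 10106 genes without it, and the median log2 fold changes were -0.14 and 0.03. Under Nutlin-3a the shares were 42.1% and 18.0% in the authors' deposited table. The sites are given 5′ to 3′ in the sense of the gene, with the word in capitals.
RCHY1, chr4:75479742-75479770, minus strand: ccgcagaatttGTATCTAtagtttatttg
CCNG1, chr5:163444342-163444370, plus strand: aggtgacatttGTATCTAcgataaaaatt
USP7, chr16:8893823-8893851, minus strand: ttggcttctctGTATCTAttgactgccct

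Of these 3 genes CCNG1 and USP7 were lower with siRFX7 under both treatments and RCHY1 was higher under both, in the authors' deposited tables. In RCHY1 the word is in 1 of 3 annotated 3′ UTRs, in CCNG1 in 2 of 5 and in USP7 in 2 of 2. COP1 and PPM1D were also lower under both treatments and lack the word in their annotated 3′ UTRs.

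Exons of 3 of the 8 genes overlap those of other genes, and whether reads were counted by strand is not given in the sources used here. MDM2 shares exon positions with the opposite-strand gene AC025423.4, which had a log2 fold change of 7.81 with Nutlin-3a in siControl (adjusted p = 9.90e-05) at a base mean of 19.6 in the authors' deposited table, against 19807 for MDM2. AC025423.2, which overlaps MDM2 on the same strand, was not analysed here. The opposite-strand gene CPM had 0.03 (adjusted p = 0.949) at a base mean of 81.2 in the same deposited table. RCHY1 overlaps the opposite-strand gene THAP6, which had 0.10 (adjusted p = 0.347) at a base mean of 543 in that deposited table, close to the 499 of RCHY1. The values of THAP6 with siRFX7, where RCHY1 rose, were not read. The part of THAP6 reads in that rise was therefore not tested. TP73 overlaps TP73-AS1, which was not analysed here.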

How the data were processed

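Poly(A) RNA of 16 U2OS libraries was measured, 4 per group, with groups taken from the sample titles. Per the submitters' processing notes, the build was hg38 and the tools were bcl2fastq 2.19.1.403, Trimmomatic 0.39, FastQC 0.11.9, cutadapt 2.10, SAMtools 1.10, Picard, featureCounts 1.6.5 and DESeq2 1.20.0. The aligner, the annotation and the strand setting are not given in the sources used here. The library kit was a stranded one, per the labels' protocols.

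Each of the 4 deposited tables compares 2 groups of 4 libraries. As a signal for a gene's level, the authors deposited the base mean, which averages normalised read counts over a comparison. The log2 fold changes and SE are the authors' values, and no source states whether they were shrunken. The deposited Wald statistic served as a score for checks: it equalled the log2 fold change over its SE, the deposited p-value equalled its two-sided normal p, and the deposited adjusted p-value equalled the Benjamini-Hochberg adjustment over each table. The tables held 23353 (Nutlin-3a in siControl), 21382 (Nutlin-3a in siRFX7), 19511 (siRFX7 under DMSO) and 20335 (siRFX7 under Nutlin-3a) genes. The lowest base mean ran from 2.46 to 6.82. Because no library values were present, no new count model was fitted.

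Table directions were fixed by the signs of RFX7 and CDKN1A, and the difference of responses from both pairs of tables had a correlation of 0.9999 across 19344 genes, which are not independent replicates. The difference of the Nutlin-3a responses was tested as a normal statistic from the 2 log2 fold changes and their SE, with adjustment over 21339 genes. The step was run on data simulated with normal noise of the same SE, which cannot show whether those SE or the normal form are right. Group levels were solved from base mean and log2 fold change with equal weight per group and scaled to 1000000 summed base means per table (CPM). Exon lengths, positions and 3′ UTRs came from GENCODE 29, in which 99.9% of the deposited gene identifiers were found. Promoters came from RefSeq, GRCh38.p14.

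Named genes were the 8 regulators, the highest and lowest Nutlin-3a log2 fold change in siControl of each list among genes whose base mean reached 100, each list gene whose response differed, and the 3 nearest genes of each regulator. Other genes were named for their overlap with a regulator or as cell type markers. The 8 genes, the lists and the 3′ UTR word were chosen with earlier results of these data known. Alternatives were a threshold of 0.01 (0.1 for the difference), a log2 size of at least 0.25, a base mean of at least 100, centring on the median, the other pair of tables and scaling by a robust SD. Python 3.11.15, pandas 2.3.3 and scipy 1.17.1 were used.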

Additional observations from a re-analysis of the deposited data

Results flagged for a closer look

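In 5 genes of the pathway lists the response to Nutlin-3a was not the same with and without the siRNA against RFX7 (adjusted p under 0.05 for the difference itself, two-sided normal test on the authors' deposited log2 fold changes). CCNG2 had a difference of -0.94 on the log2 scale, siRFX7 minus siControl, and PPP2R5D one of -0.28. The p53-induced genes CDKN1A, a cyclin-dependent kinase inhibitor, and TP53INP1, a p53 cofactor, had differences of -0.26 and -0.46, and both still rose in siRFX7, by 2.98 and 2.87 in the authors' deposited table. RRM2B, a ribonucleotide reductase subunit, had a difference of 0.26. No regulator among the 8 passed this test, against 0.937% of 21339 genes. That share is too small for a count over 8 genes to set the regulators apart. Without adjustment the 95% intervals of TP73 (-0.59 to -0.08) and MDM2 (-0.24 to -0.01) lay below 0.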

How the results depend on the processing

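The number of the 8 genes that passed the test was 5 under every alternative for Nutlin-3a in siControl, 5 to 6 for Nutlin-3a in siRFX7, 5 to 6 for siRFX7 under DMSO and 4 to 6 for siRFX7 under Nutlin-3a. It was 0 under every alternative for the difference of the responses, with the lowest adjusted p of any of the 8 between 0.268 and 0.429. No single gene changed direction. The calls of COP1 with Nutlin-3a in siRFX7 (at 0.01 and at a size of 0.25), PPM1D under both treatments and MDM2 under Nutlin-3a with siRFX7 (at a size of 0.25) were lost. The median level over the 8 genes and 4 groups was 71.5 CPM from the Nutlin-3a tables and 72.5 from the siRFX7 tables. Single levels differed between these 2 sources by up to 3.8%, with a median gap of 2.1%. For MDM2 the siRFX7 tables gave a level 3.4% lower in siControl with DMSO and 3.6% higher in siRFX7 with Nutlin-3a. No paired analysis was possible because the tables hold no single library, and no library could be left out for the same reason. Depth per library is not known from these tables.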
